A study of Rattus norvegicus with 115 samples.

Results

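The early response of rat brain tumours to synchrotron microbeams was read from 14 of the 115 arrays of the series, chosen by sample title and time. They comprise 9 tumours taken 6 h after microbeam radiation therapy (MRT, rats 6 to 14) and 5 untreated tumours of the same time (rats 1 to 5), among 59 tumour arrays and 56 arrays of the opposite, or contralateral, hemisphere. All tumours were started by placing 100000 cells of the rat line 9L, labelled as glioblastoma, in the right caudate nucleus of Fisher rats. MRT at 90 keV followed 10 days later and gave 400 Gy within the microbeams and 18 Gy in the valleys between them, while untreated rats bore the same implants and were not irradiated. Set beside these groups are contralateral samples of the same 14 rats (9 MRT, 5 untreated), tumours at 48 h (8 MRT, 4 untreated) and 8 d (7 MRT, 4 untreated), and 6 tumours taken 6 h after a broad beam (BB) of 17.4 Gy. The design text states that the hemisphere without tumour was also irradiated in treated rats. Each tumour sample is a bulk piece of implanted cells from 1 line together with the host's brain, vessel and immune cells, so fewer cells of a type and less RNA per cell cannot be told apart.

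MRT delivers x-rays as an array of very narrow parallel beams, so that strips of tissue at high dose alternate with valleys at low dose. Ionising radiation breaks DNA, and the damage response stabilises p53, a transcription factor that switches on cell-cycle inhibitors, its own inhibitor Mdm2 and genes of cell death. The 9L line is described as carrying a mutated p53 gene, whereas the host's own cells keep theirs. Irradiated tissue also activates NF-kB, a transcription factor held back by inhibitors that it induces itself, and its targets include chemokines, cytokines and the adhesion molecules that catch leukocytes on endothelium. Transcripts of mitotic genes peak in cells that pass through G2 and mitosis.

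The tumour label was checked on 12 genes of dividing mesenchymal glioma cells, among them vimentin, nestin, tenascin C and collagens. All 12 were higher in untreated tumours than in the untreated contralateral samples of the same rats (median log2 difference 5.73), and limma called all of them in that direction, as it did 29.9% of all genes. Brain tissue was present in every tumour sample. The mean of 18 neuron markers ran from 9.58 to 11.07 log2 in MRT tumours and from 9.96 to 11.07 in untreated tumours, and contralateral medians were 11.56 in MRT and 11.69 in untreated rats. A few samples lay apart from others of their group in the means of some lists. MRT rat 6 had the lowest tumour-gene mean, 10.11 against 11.25 to 11.94 in the other MRT tumours and 11.34 to 12.15 in untreated tumours, and its neuron mean was 11.07. MRT rat 7 had a microglia marker mean of 9.59, above the 7.68 to 9.05 of the other MRT tumours. Untreated rat 5 had a macrophage marker mean of 9.58, against 7.84 to 8.09 in untreated rats 1 to 4, and cytokine, interferon and neutrophil means that lay apart from those of the other untreated tumours. Counts over the gene lists that moved most are therefore also given without these 3 arrays, an alternative chosen after seeing the data. The arrays were picked in part on means of the same lists. More calls without them are therefore no independent support. Choroid plexus markers averaged 8.02 and 8.09 in untreated rats 2 and 4 and 7.56 or less in every other untreated or MRT tumour at 6 h.

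At 6 h some targets of p53 were called higher in MRT tumours (5 of 16 of arrest and feedback and 4 of 12 of death), as were 7 of 15 NF-kB genes, 8 of 22 cytokines and chemokines, 4 of 22 immediate early genes and 3 of 13 genes of protein and amino acid stress. Called lower were 5 of 31 mitosis genes and 3 of 7 microglia markers. Expression was compared on log2 intensity with limma, and a probe set was called at a Benjamini-Hochberg adjusted p under 0.05 over 31042 probe sets. Of these 239 were called (0.77%), 182 higher (0.586%) and 57 lower (0.184%) in MRT tumours. The called probe sets named 176 genes, 129 higher and 47 lower, and 47 called probe sets had no single gene symbol. Differences ran down to 0.26 log2 with a median size of 1.03, and 97 higher and 28 lower probe sets were past 1 log2. The median over all probe sets was 0.007. The count was 151 without untreated rat 4 and 367 without MRT rat 10. Without untreated rat 5 and MRT rats 6 and 7 it was 394, of which 204 were among the 239. With only the 14 arrays in the fit it was 104, of which 91 were among the 239.

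In 69 called higher and 10 called lower probe sets no MRT tumour overlapped any untreated tumour. Groups without overlap made up 0.354% (higher) and 0.0773% (lower) of all probe sets. The genes with the largest differences among these are described first, in log2 intensity, with MRT tumours by their lowest, median and highest value and untreated tumours by the values of rats 1 to 5 in that order.

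**Figure D1:**
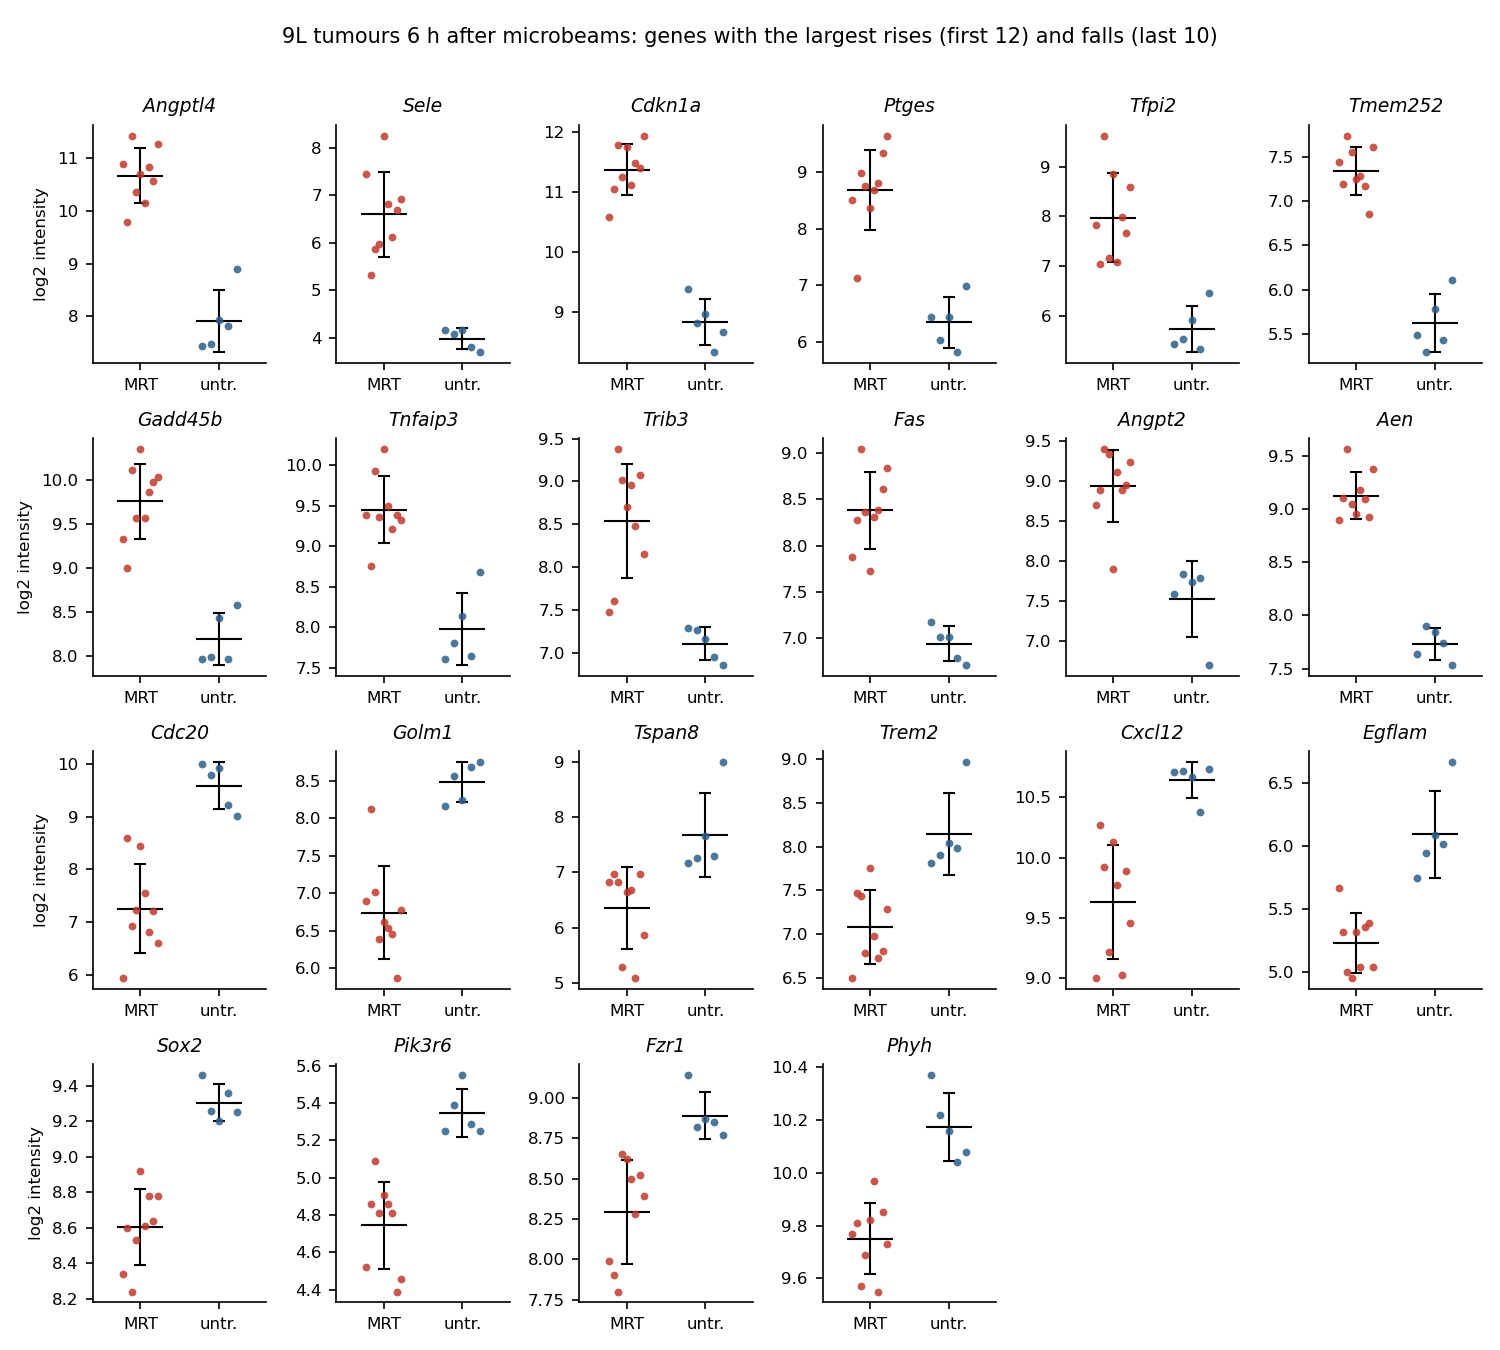
Log2 intensity of the 12 genes with the largest rises and the 10 with the largest falls among called probe sets whose groups did not overlap, in tumours at 6 h. Points are rats (9 MRT in red on the left of each panel, 5 untreated in blue on the right), lines are means and bars are SD. Every MRT point of Angptl4 lies between 9.79 and 11.43, above the untreated maximum of 8.90, and every MRT point of Golm1 lies at or below 8.12, under the untreated minimum of 8.17.

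Angptl4, a secreted inhibitor of lipoprotein lipase, had 9.79, 10.70 and 11.43 in MRT tumours, against 7.43, 7.48, 7.92, 7.81 and 8.90 in untreated tumours. The lowest MRT tumour exceeded the highest untreated tumour, rat 5. Limma gave a difference of 2.76 ± 0.32 (log2 ± SE, n = 9 and 5, adjusted p = 7.4e-08). Ptges, the inducible synthase of prostaglandin E2, had 7.13, 8.76 and 9.65 in MRT tumours, against 6.44, 6.02, 6.44, 5.81 and 6.99 in untreated tumours (2.36 ± 0.26, adjusted p = 1.3e-08). Of the 13 measured genes of prostaglandin synthesis and reception it was the only one called. Tfpi2, an inhibitor of plasmin and other serine proteases, had 7.03, 7.82 and 9.62 in MRT tumours, against 5.43, 5.52, 5.91, 5.32 and 6.46 in untreated tumours (2.25 ± 0.35, adjusted p = 5.6e-05). It was the only gene called among 17 matrix proteases and their inhibitors, where 2 were called without untreated rat 5, MRT rat 6 or MRT rat 7 in turn and without all of these. Tmem252, a transmembrane protein, had 6.85, 7.29 and 7.74 in MRT tumours, against 5.49, 5.29, 5.78, 5.43 and 6.11 in untreated tumours (1.73 ± 0.22, adjusted p = 4.7e-07). Angpt2, which loosens vessels by opposing Angpt1 at the Tek receptor, had 7.90, 8.95 and 9.40 in MRT tumours, against 7.58, 7.83, 7.73, 7.79 and 6.69 in untreated tumours (1.41 ± 0.20, adjusted p = 9.7e-06). MRT rat 10 came close to the untreated tumours for this gene.

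Among the falls without overlap, the Golgi membrane protein Golm1 had 5.86, 6.61 and 8.12 in MRT tumours, against 8.17, 8.57, 8.24, 8.69 and 8.75 in untreated tumours (-1.74 ± 0.30, adjusted p = 0.00025). The stem-cell transcription factor Sox2 had 8.24, 8.61 and 8.92 in MRT tumours, against 9.46, 9.26, 9.20, 9.36 and 9.25 in untreated tumours (-0.70 ± 0.15, adjusted p = 0.0043). These kept their calls when any 1 rat was left out. The other falls were less firm. Tspan8, a tetraspanin, differed by -1.32 ± 0.31 (adjusted p = 0.017) and lost its call without untreated rat 5 or MRT rat 12, with 0.14 as the highest adjusted p. The matrix protein Egflam, at -0.86 ± 0.20 (adjusted p = 0.013), reached adjusted p = 0.087 without untreated rat 5, and its brighter probe set was not called (-0.39, adjusted p = 0.41). Cxcl12, the ligand of the chemokine receptor Cxcr4, had 9.00, 9.77 and 10.27 in MRT tumours, against 10.71, 10.72, 10.67, 10.38 and 10.73 in untreated tumours. Its difference of -1.01 ± 0.26 (adjusted p = 0.039) lost the call in 9 of 14 fits that left out 1 rat, up to 0.12 without untreated rat 2, and with every array set to the same median. The brightest Cxcl12 probe set gave -0.46 and another -0.25, neither called (adjusted p = 0.80 and 1.00). Pik3r6, a regulatory subunit of phosphoinositide 3-kinase gamma (-0.60, adjusted p = 0.015), Fzr1, an activator of the anaphase-promoting complex (-0.60, adjusted p = 0.019), and the peroxisomal enzyme Phyh (-0.42, adjusted p = 0.047) lost theirs in 2, 4 and 11 such fits, with highest adjusted p of 0.089 without untreated rat 3 and of 0.12 and 0.23 without untreated rat 1. The brighter Phyh probe set was not called (-0.20, adjusted p = 0.85).

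Targets of p53 were called only in part. Lists are read on 1 probe set per gene, the brightest on average, and on that footing 1.17% of 14217 genes were called, 0.865% higher and 0.302% lower, with a median difference of -0.01. The 16 measured targets of arrest and feedback had 5 calls higher and 0 lower (median 0.25), and the 12 death targets 4 higher and 0 lower (median 0.44). Without the 3 arrays that stood apart the counts were 6 and 4. The mean of the arrest list ran from 9.59 to 9.88 in MRT tumours and from 9.07 to 9.37 in untreated tumours, and that of the death list from 8.34 to 8.93 and from 7.92 to 8.25. Neither list mean overlapped between the groups. The mean of 15 glucocorticoid-responsive genes did not overlap either, at 9.26 to 9.57 in MRT and 8.75 to 9.10 in untreated tumours.

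Cdkn1a, the cyclin-dependent kinase inhibitor p21, had 10.59, 11.40 and 11.93 in MRT tumours, against 9.39, 8.82, 8.98, 8.34 and 8.68 in untreated tumours. All 9 MRT tumours lay above all 5 untreated tumours. Its difference was 2.53 ± 0.20 (adjusted p = 7.6e-13), and the other Cdkn1a probe set gave 2.73 ± 0.43 (adjusted p = 5.6e-05). Mdm2, the ubiquitin ligase that removes p53, had 10.84, 11.51 and 11.84 in MRT tumours, against 10.35, 10.43, 10.37, 10.21 and 9.84 in untreated tumours (1.12 ± 0.12, adjusted p = 1.6e-08). Sesn2, a stress-induced inhibitor of mTORC1, had 9.02, 10.15 and 10.59 in MRT tumours, against 8.88, 8.61, 8.82, 8.52 and 8.76 in untreated tumours (1.26 ± 0.19, adjusted p = 4.5e-05). Neither Mdm2 nor Sesn2 overlapped between the groups. Ccng1, a cyclin that restrains p53 with Mdm2, had 10.97, 12.19 and 12.52 in MRT tumours, against 9.94, 10.76, 10.50, 11.02 and 10.96 in untreated tumours (1.40 ± 0.25, adjusted p = 0.00047). Its overlap came from MRT rat 10 alone. The long non-coding RNA Pvt1 differed by 0.89 ± 0.19 (adjusted p = 0.0069, and 0.057 without untreated rat 5). Gadd45a, a damage-induced inhibitor of cell-cycle progression, was higher by 0.84 ± 0.24 but was not called (adjusted p = 0.092).

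Among the death targets, the death receptor Fas had 7.73, 8.36 and 9.04 in MRT tumours, against 7.18, 7.01, 7.02, 6.79 and 6.71 in untreated tumours (1.43 ± 0.21, adjusted p = 1.2e-05). The exonuclease Aen had 8.90, 9.10 and 9.57 in MRT tumours, against 7.64, 7.90, 7.84, 7.74 and 7.53 in untreated tumours (1.40 ± 0.13, adjusted p = 3.9e-11). Its lowest MRT tumour stood well clear of its highest untreated tumour. Bbc3, the BH3-only protein Puma, had 8.69, 9.02 and 9.40 in MRT tumours, against 8.38, 8.17, 8.43, 8.02 and 8.06 in untreated tumours (0.83 ± 0.15, adjusted p = 0.00042). Tp53inp1, a p53-induced protein of death and autophagy, was at a low level of 4.91 to 5.81 in MRT tumours and 4.32 to 4.86 in untreated tumours (0.78 ± 0.14, adjusted p = 0.00062). Phlda3, a repressor of Akt, was not called at 0.77 ± 0.21 (adjusted p = 0.07), and MRT rat 6 was its low sample at 9.58. Of the 10 targets of repair and stress secretion only Gdf15, a secreted stress cytokine, was called. It had 6.36, 8.14 and 9.59 in MRT tumours, against 5.91, 5.81, 5.64, 5.67 and 6.41 in untreated tumours (2.19 ± 0.32, adjusted p = 1.4e-05), and 8 of 9 MRT tumours were above all untreated ones.

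**Figure D2:**
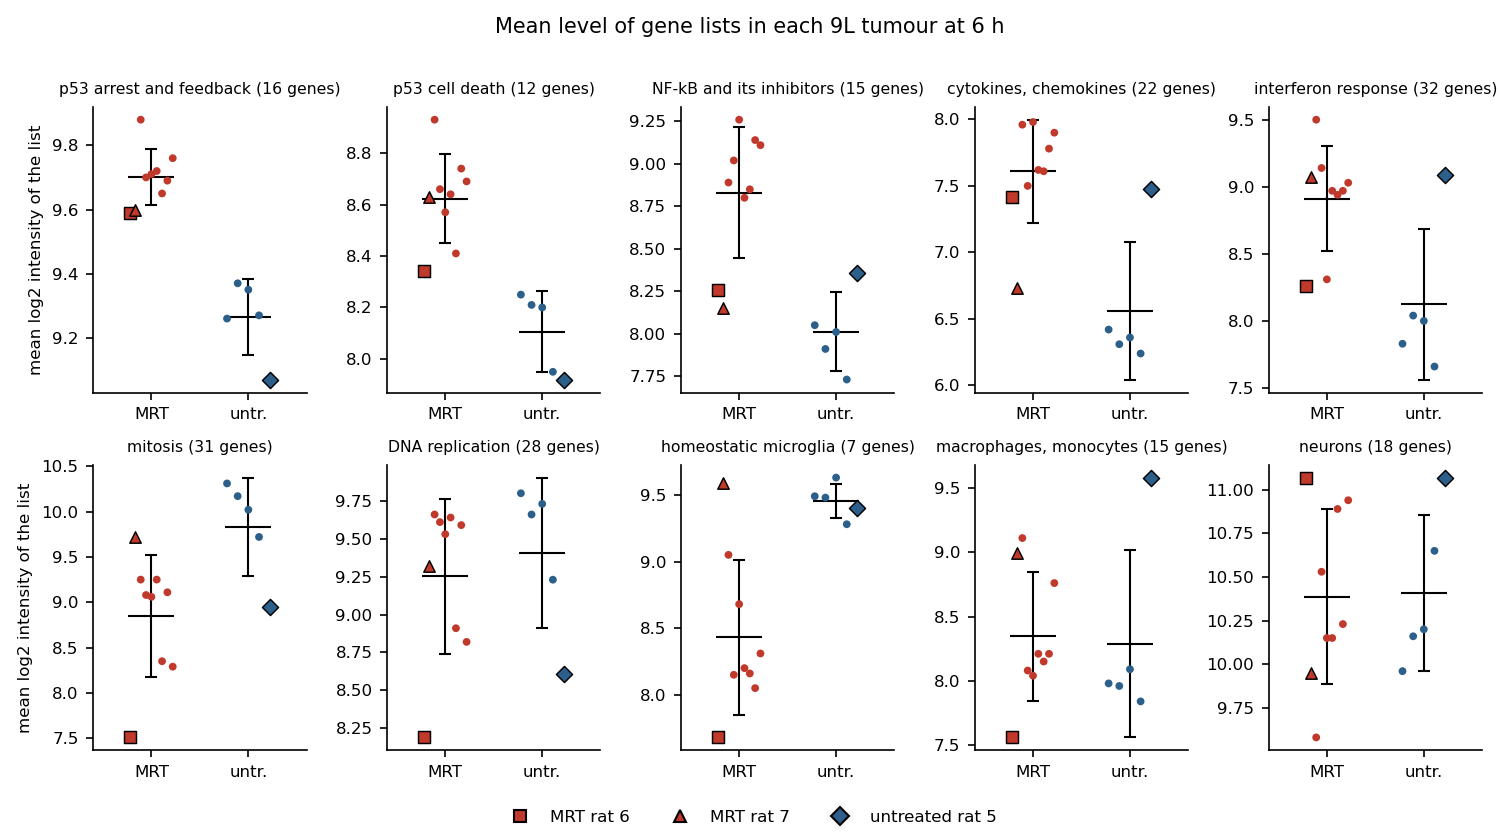
Mean log2 intensity of 10 gene lists in each tumour at 6 h, 9 MRT in red on the left of each panel and 5 untreated in blue on the right, with group means (lines) and SD (bars). The square and triangle mark MRT rats 6 and 7 and the diamond untreated rat 5. The p53 arrest list does not overlap (9.59 to 9.88 in MRT, 9.07 to 9.37 in untreated tumours), and untreated rat 5 lies at 7.48 for cytokines, inside the MRT range of 6.73 to 7.98.

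NF-kB subunits and inhibitors, chemokines and adhesion molecules rose in part. All 15 measured NF-kB genes had positive differences, and 7 were called higher and 0 lower (median 0.84). Of 22 cytokines and chemokines 8 were called higher and 0 lower (median 0.68), and of 9 leukocyte adhesion molecules 2 were called higher and 0 lower (median 0.28). These counts depended on the arrays. NF-kB calls fell to 4 and 3 without untreated rats 2 and 4 and numbered 10 without the 3 arrays that stood apart, and cytokine calls were 5 without untreated rat 1, 2, 3 or 4 in turn. Untreated rat 5 lay within the MRT range for all 8 called cytokines, and its macrophage and neutrophil means were 9.58 and 5.79, against 7.84 to 8.09 and 4.79 to 5.00 in the other untreated tumours. The part of such cells in these results was not tested.

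Promoters of 5 called genes from these lists are shown because several carry the letters of the NF-kB site close to the start. Sequences are the 120 bases before the annotated start in RefSeq (GRCr8), written 5' to 3' on the strand of the gene, with matches on either strand to the NF-kB letters (GGG, any 2 bases, then TTTCC) in capitals. They come from chr6:78597073-78597192 (minus strand, Nfkbia), chr1:15543980-15544099 (minus, Tnfaip3), chr14:17479322-17479441 (minus, Cxcl1), chr14:17467256-17467375 (minus, Cxcl2) and chr9:91837039-91837158 (plus, Ccl20).
Nfkbia: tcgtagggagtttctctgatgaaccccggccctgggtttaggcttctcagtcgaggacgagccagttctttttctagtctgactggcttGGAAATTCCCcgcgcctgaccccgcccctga
Tnfaip3: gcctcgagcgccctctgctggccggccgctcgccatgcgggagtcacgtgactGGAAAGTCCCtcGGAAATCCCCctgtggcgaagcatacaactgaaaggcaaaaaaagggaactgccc
Cxcl1: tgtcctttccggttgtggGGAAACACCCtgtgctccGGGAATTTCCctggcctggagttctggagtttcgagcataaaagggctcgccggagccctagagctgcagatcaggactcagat
Cxcl2: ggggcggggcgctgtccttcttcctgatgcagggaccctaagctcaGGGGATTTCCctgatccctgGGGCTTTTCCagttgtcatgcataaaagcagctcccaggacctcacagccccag
Ccl20: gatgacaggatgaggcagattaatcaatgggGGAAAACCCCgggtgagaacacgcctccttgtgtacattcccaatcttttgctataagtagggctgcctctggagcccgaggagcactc
The first base of each match lies 31 bases before the start in Nfkbia, 67 and 55 in Tnfaip3, 102 and 84 in Cxcl1, 74 and 54 in Cxcl2 and 89 in Ccl20. Over 250 bases before the start, the letters were present in 6 of the 12 called genes of the 3 lists that have a promoter entry (50.0%) and in 5 of 19 genes that were not called (26.3%). They were present in 9 of 106 genes called higher (8.49%), in 0 of 39 called lower and in 376 of 27457 genes of the promoter table (1.37%). Among measured genes with a promoter entry the share was 1.61%.

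Among the inhibitors that NF-kB induces, the deubiquitinase Tnfaip3 had 8.76, 9.38 and 10.20 in MRT tumours, against 7.61, 7.81, 8.14, 7.65 and 8.68 in untreated tumours. No MRT tumour lay below an untreated one (1.47 ± 0.24, adjusted p = 8.6e-05). Nfkbia, the inhibitor IkB-alpha, had 9.84, 11.14 and 11.75 in MRT tumours, against 10.19, 9.93, 9.84, 9.99 and 10.33 in untreated tumours (0.92 ± 0.22, adjusted p = 0.021). Its call was lost without untreated rat 2, 3 or 4 or MRT rat 13, up to adjusted p = 0.093. Birc3, a ubiquitin ligase that blocks death signalling, differed by 1.61 ± 0.28 (adjusted p = 0.00033) and the NF-kB subunit Relb by 1.27 ± 0.24 (adjusted p = 0.0013). The nuclear IkB proteins Nfkbiz (0.96, adjusted p = 0.012) and Bcl3 (1.13, adjusted p = 0.017) reached 0.053 and 0.11 without untreated rat 4, and Bcl3 was also lost without untreated rat 2. Tnip2, a partner of Tnfaip3 (0.77, adjusted p = 0.048), lost its call in 10 of 14 fits without 1 rat, up to 0.19. The cytokine-signal inhibitor Socs3 was not called (0.84 ± 0.26, adjusted p = 0.16). Gadd45b, an NF-kB-induced survival factor outside the lists, had 9.00, 9.86 and 10.35 in MRT tumours, against 7.97, 7.99, 8.43, 7.97 and 8.58 in untreated tumours (1.57 ± 0.18, adjusted p = 8.4e-08), and its groups did not overlap.

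The monocyte chemokine Ccl2 had 10.31, 12.22 and 12.87 in MRT tumours, against 9.00, 9.02, 9.21, 8.33 and 10.57 in untreated tumours (2.86 ± 0.37, adjusted p = 9.4e-07). Its close relative Ccl7 had 8.52, 10.63 and 11.45 in MRT tumours, against 7.24, 7.28, 7.40, 6.81 and 8.59 in untreated tumours (2.94 ± 0.44, adjusted p = 1.8e-05). In both genes 8 MRT tumours lay above all untreated ones, and the overlap was between MRT rat 7 and untreated rat 5. Ccl3, which attracts monocytes and lymphocytes, had 7.34, 9.32 and 10.85 in MRT tumours, against 6.86, 6.48, 6.43, 6.44 and 8.76 in untreated tumours (2.45 ± 0.35, adjusted p = 9.7e-06). Il1b, the inflammasome-processed cytokine, had 8.20, 9.38 and 9.93 in MRT tumours, against 6.74, 6.48, 6.21, 6.23 and 9.50 in untreated tumours (2.24 ± 0.39, adjusted p = 0.0003). The neutrophil chemokine Cxcl2 ranged widely, with 5.25, 8.15 and 10.08 in MRT tumours, against 4.58, 4.58, 4.52, 4.39 and 8.91 in untreated tumours (2.98 ± 0.61, adjusted p = 0.0035). For Il1b and Cxcl2 untreated rat 5 stood above the MRT median, and the other 4 untreated tumours lay below every MRT tumour. Ccl20, the ligand of Ccr6 (2.15, adjusted p = 0.012), the neutrophil chemokine Cxcl1 (2.13, adjusted p = 0.034) and Ccl4 (1.43, adjusted p = 0.027) lost their calls in 4, 9 and 7 of the 14 fits without 1 rat, up to 0.087, 0.14 and 0.13. Ccl5 was not called (1.00 ± 0.31, adjusted p = 0.15). With only the 14 arrays in the fit, Ccl3 and Cxcl2 had adjusted p of 0.077 and 0.24.

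Sele, the selectin that activated endothelium displays to leukocytes, had 5.32, 6.69 and 8.25 in MRT tumours, against 4.17, 4.09, 4.17, 3.81 and 3.70 in untreated tumours. All MRT tumours lay above all untreated tumours, whose values were low (2.61 ± 0.35, adjusted p = 2.1e-06). Icam1, a ligand of leukocyte integrins, had 8.64, 10.46 and 11.14 in MRT tumours, against 8.89, 8.38, 8.71, 8.13 and 9.50 in untreated tumours (1.56 ± 0.28, adjusted p = 0.00057, and 0.11 with only the 14 arrays in the fit). Vcam1, which binds monocytes and lymphocytes, was not called at 1.42 ± 0.38 (adjusted p = 0.059) although its groups did not overlap, at 9.56 to 11.34 in MRT tumours and 7.94 to 9.52 in untreated tumours.

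Immediate early transcription factors were called higher in 4 of 22 cases and lower in 0 (median 0.46), and in 8 without the 3 arrays that stood apart. Atf3, a stress-induced repressor, had 7.92, 8.40 and 9.61 in MRT tumours, against 6.09, 6.54, 6.60, 6.55 and 8.24 in untreated tumours (1.83 ± 0.28, adjusted p = 4.2e-05). Maff, a small Maf protein, differed by 1.33 ± 0.26 (adjusted p = 0.0018) and the AP-1 subunit Fosl1 by 1.49 ± 0.30 (adjusted p = 0.0031). Fos itself had 10.00, 10.34 and 11.30 in MRT tumours, against 9.34, 9.09, 9.22, 9.24 and 9.25 in untreated tumours. The groups of Fos did not overlap (1.25 ± 0.30, adjusted p = 0.02), and its call was lost without untreated rat 2, 3 or 4, up to 0.074. Egr1 was not called (0.61 ± 0.22, adjusted p = 0.33), and MRT rats spanned 11.21 to 12.87 for it.

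Within the list of protein and amino acid stress, 3 of 13 genes were called higher and 0 lower (median 0.24), and all 3 are targets of Atf4, the transcription factor of the integrated stress response. The enzyme Chac1, which degrades glutathione, had 9.23, 9.68 and 10.48 in MRT tumours, against 8.67, 8.59, 8.83, 8.80 and 8.67 in untreated tumours. It did not overlap (1.03 ± 0.12, adjusted p = 2.3e-07). Asns, asparagine synthetase, had 8.93, 9.98 and 10.25 in MRT tumours, against 8.55, 8.94, 8.85, 8.95 and 9.34 in untreated tumours (0.87 ± 0.16, adjusted p = 0.00056, and 0.17 with only the 14 arrays in the fit). The pseudokinase Trib3 had 8.04, 9.82 and 10.56 in MRT tumours, against 8.24, 7.65, 8.23, 7.45 and 7.36 in untreated tumours (1.75 ± 0.38, adjusted p = 0.0082, and 0.075 with only the 14 arrays). A dimmer Trib3 probe set had 7.47 to 9.38 in MRT and 6.85 to 7.29 in untreated tumours, without overlap (1.44 ± 0.32, adjusted p = 0.011). Atf4 (0.42 ± 0.14, adjusted p = 0.20) and Ddit3 (0.62 ± 0.29, adjusted p = 0.61), which it induces, were not called. The heat shock and unfolded protein genes of the list, such as Hspa1a, Hspb1, Hspa5 and Xbp1, had no call and lay between -0.07 and 0.28.

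Of these genes Chac1 and Trib3 carry letters of the amino acid response element, and are shown for that reason. The matches to TGATGNAA on either strand are in capitals, in the 200 bases before the RefSeq start of Chac1 (GRCr8 chr3:126795931-126796130, plus strand) and the 120 bases before that of Trib3 (chr3:161275534-161275653, minus strand).
Chac1: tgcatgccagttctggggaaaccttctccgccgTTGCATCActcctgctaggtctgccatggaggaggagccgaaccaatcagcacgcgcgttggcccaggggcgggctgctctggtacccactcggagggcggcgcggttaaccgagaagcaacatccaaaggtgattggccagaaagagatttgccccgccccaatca
Trib3: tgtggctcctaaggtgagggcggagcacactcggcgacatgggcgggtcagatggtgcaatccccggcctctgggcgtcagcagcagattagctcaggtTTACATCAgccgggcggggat
The match begins 167 bases before the start in Chac1 and 21 in Trib3. Over 250 bases these letters were found in 3 of the 13 stress genes, 2 of the 3 called, and in 3.58% of all genes of the promoter table. Among measured genes with an entry the share was 2.2%.

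Some genes of the antioxidant, hypoxia and glucocorticoid lists rose. All 10 measured Nrf2 antioxidant targets had positive differences (median 0.13) and 4 were called higher and 0 lower. Srxn1, which repairs peroxiredoxins, had 9.31, 9.59 and 9.81 in MRT tumours, against 8.54, 8.99, 9.06, 8.95 and 8.88 in untreated tumours. Its groups did not overlap (0.71 ± 0.17, adjusted p = 0.016, and 0.12 without untreated rat 1). Osgin1, an oxidative stress-induced growth inhibitor, differed by 0.83 ± 0.18 (adjusted p = 0.008, and 0.072 without untreated rat 4). The haem oxygenase Hmox1 (1.22, adjusted p = 0.04) and the glutathione synthesis subunit Gclc (0.38, adjusted p = 0.043) lost their calls in 10 and 9 of 14 fits without 1 rat, up to 0.30 and 0.29. The Nrf2 count was 1 without untreated rat 1 or 4, and 2 without untreated rat 3 or MRT rat 8, 12 or 14. Of 22 genes of hypoxia and vessel growth 3 were called higher and 0 lower, with a median of 0.01. They were Angptl4, Angpt2 and Pfkfb3, a kinase that drives glycolysis, which had 8.82, 9.09 and 9.57 in MRT tumours, against 7.67, 8.40, 8.11, 8.39 and 8.65 in untreated tumours (0.92 ± 0.18, adjusted p = 0.0025). The hypoxia marker Ndrg1 was not called (-0.35 ± 0.18, adjusted p = 0.70).

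Of 15 glucocorticoid-responsive genes 5 were called higher and 0 lower (median 0.53). The acute-phase transcription factor Cebpd had 9.43, 9.84 and 10.16 in MRT tumours, against 8.97, 8.75, 9.01, 8.76 and 9.07 in untreated tumours (0.97 ± 0.15, adjusted p = 6e-05). Errfi1, an inhibitor of the EGF receptor, had 9.99, 10.29 and 10.66 in MRT tumours, against 9.04, 9.19, 9.31, 9.21 and 9.73 in untreated tumours (1.00 ± 0.18, adjusted p = 0.00066). Neither overlapped. Cebpb, the partner of Cebpd in the acute-phase response, differed by 1.19 ± 0.24 (adjusted p = 0.0038), and Lcn2, an iron-binding acute-phase protein, had 4.52 to 6.02 in MRT tumours and 4.09 to 4.46 in untreated tumours (1.29 ± 0.26, adjusted p = 0.0025). Nfkbia is the remaining called member. Of the 15 genes 12 had positive differences, and Mt1, Sgk1, Mt2A and Per1 were among those not called. Fkbp5 (-0.08) and Klf9 (0.13) were not called either.

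**Figure D3:**
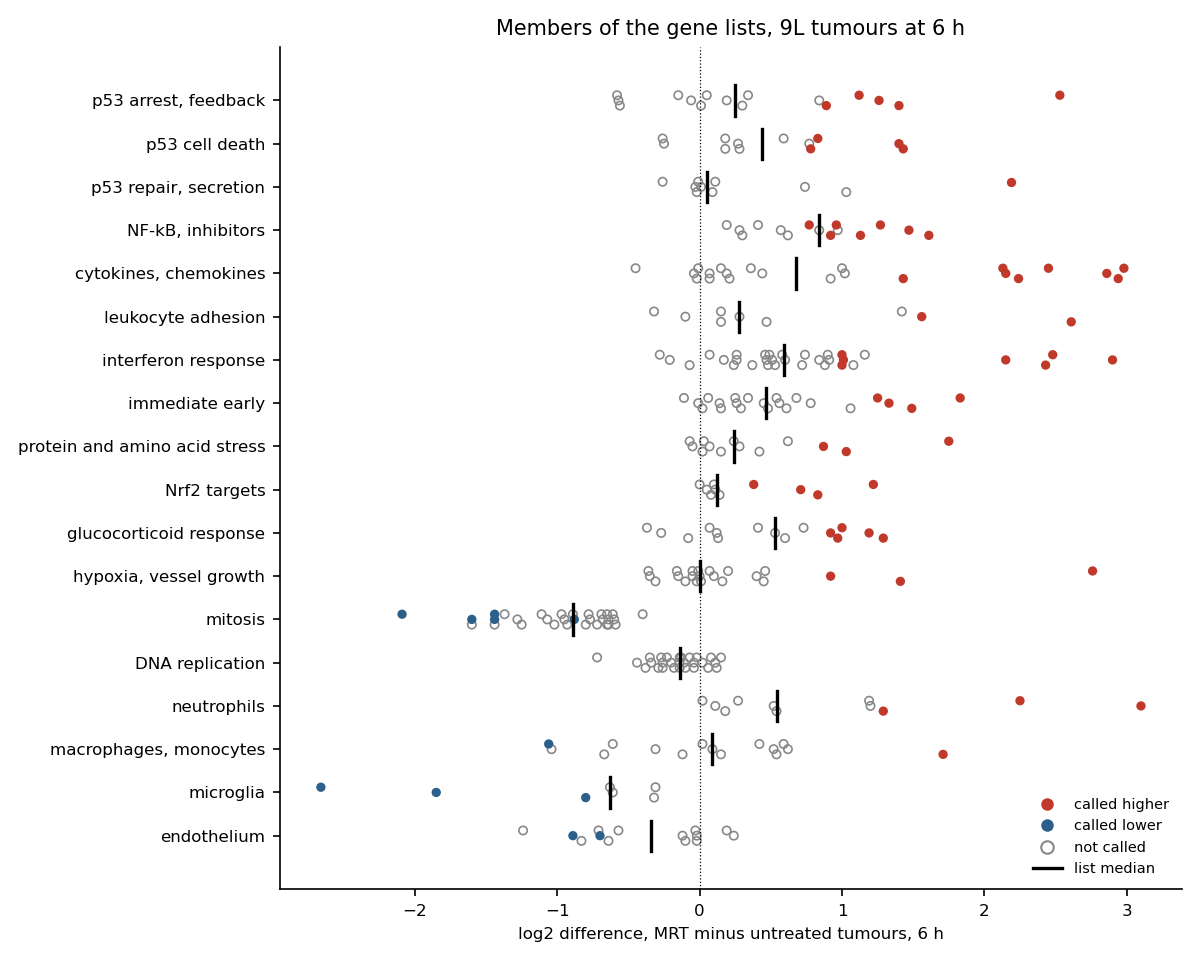
Log2 difference, MRT minus untreated tumours at 6 h, of every measured member of 18 gene lists. Filled points are called higher (red) or lower (blue), open points were not called and black bars are list medians. All 31 mitosis genes lie below 0 with a median of -0.89, and 5 of them are called, while the 28 DNA replication genes have a median of -0.14 and no call.

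Interferon-response genes were called higher in 7 of 32 cases and lower in 0 (median 0.59), and 29 had positive differences. The chemokine Cxcl11 had 8.80, 9.77 and 10.71 in MRT tumours, against 6.21, 6.27, 6.43, 6.02 and 9.24 in untreated tumours (2.90 ± 0.55, adjusted p = 0.0013). Cxcl10, which shares its receptor Cxcr3, had 9.79, 10.04 and 10.73 in MRT tumours, against 6.85, 7.24, 7.44, 7.01 and 9.81 in untreated tumours (2.48 ± 0.45, adjusted p = 0.00071). Rsad2, the antiviral enzyme viperin, had 9.38, 11.33 and 12.47 in MRT tumours, against 7.58, 8.72, 8.54, 8.03 and 10.70 in untreated tumours (2.43 ± 0.39, adjusted p = 8.1e-05). In each gene untreated rats 1 to 4 lay below every MRT tumour and untreated rat 5 lay among them. The list mean was 9.09 in untreated rat 5, 7.66 to 8.04 in the other untreated tumours and 8.26 to 9.50 in MRT tumours. The remaining calls were less firm: Oas1b (1.01, adjusted p = 0.018), Ifit3 (2.15, adjusted p = 0.038), Gbp2 (1.00, adjusted p = 0.038) and Cmpk2 (1.00, adjusted p = 0.043) lost theirs in 3, 11, 10 and 10 of 14 fits without 1 rat, up to 0.17, 0.26, 0.14 and 0.25. The interferon count was 12 without untreated rat 5 and 15 without the 3 arrays that stood apart. It was 3 without untreated rat 1, 2 or 4, and 4 without untreated rat 3 or MRT rat 8, 9, 11, 12 or 14. The interferon response letters (TTTC, any 2 bases, then TTTC) occurred in 250 promoter bases of 5 of the 7 called genes and of 13 of the 25 measured list genes with an entry. They occurred in 3.61% of all genes of the promoter table and in 2.88% of all measured genes with an entry.

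Of 31 measured genes of mitosis and G2, 5 were called lower and 0 higher in MRT tumours, and 2 with only the 14 arrays in the fit. All 31 had negative differences (median -0.89). The 28 genes of DNA replication had a median of -0.14 and 0 calls with limma, and the largest difference among them was that of Gins1, a replicative helicase subunit (-0.72 ± 0.38, adjusted p = 0.73, 2273 probe sets having an unadjusted p under 0.05 over the whole array). The mitosis mean ran from 7.51 to 9.72 in MRT tumours and was 10.31, 10.17, 10.02, 9.72 and 8.95 in untreated tumours. Untreated rat 5 was the low sample of its group, MRT rat 7 the highest of its own and MRT rat 6, the sample with the least tumour-gene signal, the lowest. Mitosis calls numbered 12 without untreated rat 5, 11 without MRT rat 7, 9 without MRT rat 10 and 2 without untreated rat 1, 2 or 3. They numbered 11 without the 3 arrays that stood apart and 16 with the neuron marker mean as a covariate.

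Cdc20, the activator of the anaphase-promoting complex, had 7.13, 8.84 and 10.10 in MRT tumours, against 11.27, 11.07, 11.32, 10.70 and 9.74 in untreated tumours on its brighter probe set (-2.09 ± 0.39, adjusted p = 0.0012). On a dimmer probe set it had 5.93, 7.21 and 8.60 in MRT tumours, against 10.00, 9.79, 9.93, 9.22 and 9.01 in untreated tumours, without overlap (-2.34 ± 0.42, adjusted p = 0.00048). Plk1, the kinase of mitotic entry, had 7.33, 8.13 and 9.18 in MRT tumours, against 9.87, 9.63, 9.91, 9.34 and 9.01 in untreated tumours (-1.44 ± 0.31, adjusted p = 0.0064). Only the MRT maximum exceeded the untreated minimum. Pttg1, or securin, had 7.73, 9.68 and 11.04 in MRT tumours, against 11.54, 11.48, 11.48, 11.19 and 10.16 in untreated tumours (-1.60 ± 0.37, adjusted p = 0.013). Aurka, the kinase of spindle poles, had 6.92, 8.11 and 9.28 in MRT tumours, against 9.97, 9.86, 9.87, 9.33 and 8.49 in untreated tumours (-1.44 ± 0.33, adjusted p = 0.014). Pttg1 and Aurka lost their calls without untreated rat 1, 2 or 3, up to 0.068 and 0.081, and Ccnf, cyclin F (-0.88, adjusted p = 0.039), in 8 of 14 fits, up to 0.22. Among the uncalled members the kinesin Kif20a (-1.60, adjusted p = 0.052), the ubiquitin-conjugating enzyme Ube2c (-1.37, adjusted p = 0.063) and cyclin B1, Ccnb1 (-1.25, adjusted p = 0.075) came closest. A dimmer Ccnb1 probe set was called lower (-1.63 ± 0.36, adjusted p = 0.0096).

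The promoters of Cdc20 and Pttg1 are shown because both carry the paired letters known from cell-cycle promoters. In the 120 bases before the RefSeq start (GRCr8 chr5:137255800-137255919 and chr10:28406327-28406446, both minus strand), matches on either strand to CCAAT, the binding site of NF-Y, and to TTTGAA, the cell-cycle homology region (CHR), are in capitals.
Cdc20: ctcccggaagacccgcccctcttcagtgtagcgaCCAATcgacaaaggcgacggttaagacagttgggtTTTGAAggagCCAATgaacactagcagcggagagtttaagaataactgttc
Pttg1: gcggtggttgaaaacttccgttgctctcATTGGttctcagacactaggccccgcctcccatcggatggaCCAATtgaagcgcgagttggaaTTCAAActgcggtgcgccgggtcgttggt
The CCAAT matches begin 86 and 41 bases before the start in Cdc20 and 92 and 51 in Pttg1, and the CHR matches 51 and 29. Over 250 bases CCAAT was present in 24 of 28 mitosis genes with a promoter entry (85.7%) and in 36.1% of all genes of the table. CHR was present in 14 of the 28 (50.0%) and in 17.2% of all, and held by 3 of the 5 called and 11 of the 23 uncalled mitosis genes. Among measured genes with an entry the shares were 36.3% for CCAAT and 11.8% for CHR.

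Some markers of microglia, neutrophils and endothelium differed between the groups. Of 7 homeostatic microglia markers 3 were called lower and 0 higher (median -0.63), and 1 lower with only the 14 arrays in the fit. P2ry12, the purinergic receptor of resting microglia, had 5.36, 6.60 and 9.38 in MRT tumours, against 9.16, 9.30, 9.54, 9.53 and 10.01 in untreated tumours (-2.66 ± 0.39, adjusted p = 1.6e-05). The receptor Gpr34 had 4.46, 5.36 and 8.55 in MRT tumours, against 7.25, 7.57, 7.79, 7.40 and 7.92 in untreated tumours (-1.85 ± 0.39, adjusted p = 0.0055, and 0.25 with only the 14 arrays in the fit). The high MRT sample of both was rat 7, and the other 8 lay below every untreated tumour. Sall1, a transcription factor of microglial identity (-0.80, adjusted p = 0.044), lost its call in 10 of 14 fits without 1 rat, up to 0.18. Of 15 macrophage and monocyte markers Cd14, the co-receptor for endotoxin, was called higher (1.71 ± 0.32, adjusted p = 0.0013), and Trem2, a lipid receptor of microglia and macrophages, lower. Trem2 had 6.49, 6.98 and 7.76 in MRT tumours, against 7.81, 7.90, 8.04, 7.99 and 8.97 in untreated tumours, without overlap (-1.06 ± 0.24, adjusted p = 0.013, and 0.10 without untreated rat 5). Csf1r, the receptor that macrophages and microglia need to survive, was not called (-1.04 ± 0.28, adjusted p = 0.058). Without the 3 arrays that stood apart, 4 macrophage markers were called higher and 0 lower.

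All 11 neutrophil markers had positive differences (median 0.54) and 3 were called higher, with 5 calls without untreated rat 5, MRT rat 6 or MRT rat 7 in turn and 6 without all of these. S100a9, a subunit of calprotectin, had 6.63, 9.12 and 9.69 in MRT tumours, against 4.81, 5.17, 5.83, 4.91 and 8.13 in untreated tumours (3.10 ± 0.57, adjusted p = 0.00083). Its partner S100a8 differed by 2.25 ± 0.44 (adjusted p = 0.002), and Lcn2 is the third call. The neutrophil chemokine receptor Cxcr2 lay between 4.25 and 5.36 in all 14 tumours and was not called (0.52 ± 0.14, adjusted p = 0.052). Of 12 reactive astrocyte genes 4 were called higher and 0 lower (median 0.57), namely Lcn2, Gbp2, the metalloreductase Steap4 (2.59 ± 0.51, adjusted p = 0.0022) and the sphingosine receptor S1pr3. S1pr3 had 9.36, 9.97 and 10.89 in MRT tumours, against 8.73, 8.86, 8.83, 8.73 and 8.85 in untreated tumours, without overlap (1.28 ± 0.26, adjusted p = 0.0038). Steap4 had adjusted p = 0.10 with only the 14 arrays in the fit. In untreated rats 10 of these 12 genes were called higher in tumour than in the contralateral hemisphere (median 2.09), as were 29.9% of all genes. Which cells carried the reactive astrocyte calls was not tested. Of 14 endothelial markers 2 were called lower and 0 higher (median -0.35). The angiopoietin receptor Tek had 6.49, 7.43 and 8.01 in MRT tumours, against 8.18, 8.38, 8.47, 8.37 and 7.94 in untreated tumours (-0.89 ± 0.19, adjusted p = 0.0069), and the transcription factor Sox18 differed by -0.70 ± 0.18 (adjusted p = 0.039, lost in 7 of 14 fits without 1 rat, up to 0.23). The endothelial count was 0 with only the 14 arrays in the fit, 5 without MRT rat 7 and 1 without untreated rat 1, 2 or 3 or MRT rat 6, 9, 12 or 14. The sialomucin Emcn was not called (-0.71 ± 0.19, adjusted p = 0.054). Markers of neurons (18), oligodendrocytes (9), astrocytes (8), pericytes (8), T and NK cells (14) and B cells (5) had 0 calls with limma, and their medians were -0.06, 0.01, 0.01, -0.42, 0.27 and 0.12.

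The same rats' contralateral hemispheres show which calls were shared with irradiated brain tissue without tumour. The tumour samples held brain tissue too, and which cells carried the shared calls was not tested. There MRT called 1625 probe sets against untreated contralateral samples (5.23%), 1042 higher (3.36%) and 583 lower (1.88%). Of the 239 called in tumour, 176 were called in the same direction there and 0 in the opposite one, and the same 176 stand among the 1625. The arrays differ but the rats are shared. The difference between the tissues was tested directly, as the MRT effect in tumour minus that in the contralateral hemisphere, and 139 probe sets were called (0.448%), 15 with a higher effect in tumour (0.0483%) and 124 with a lower one (0.399%).

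**Figure D4:**
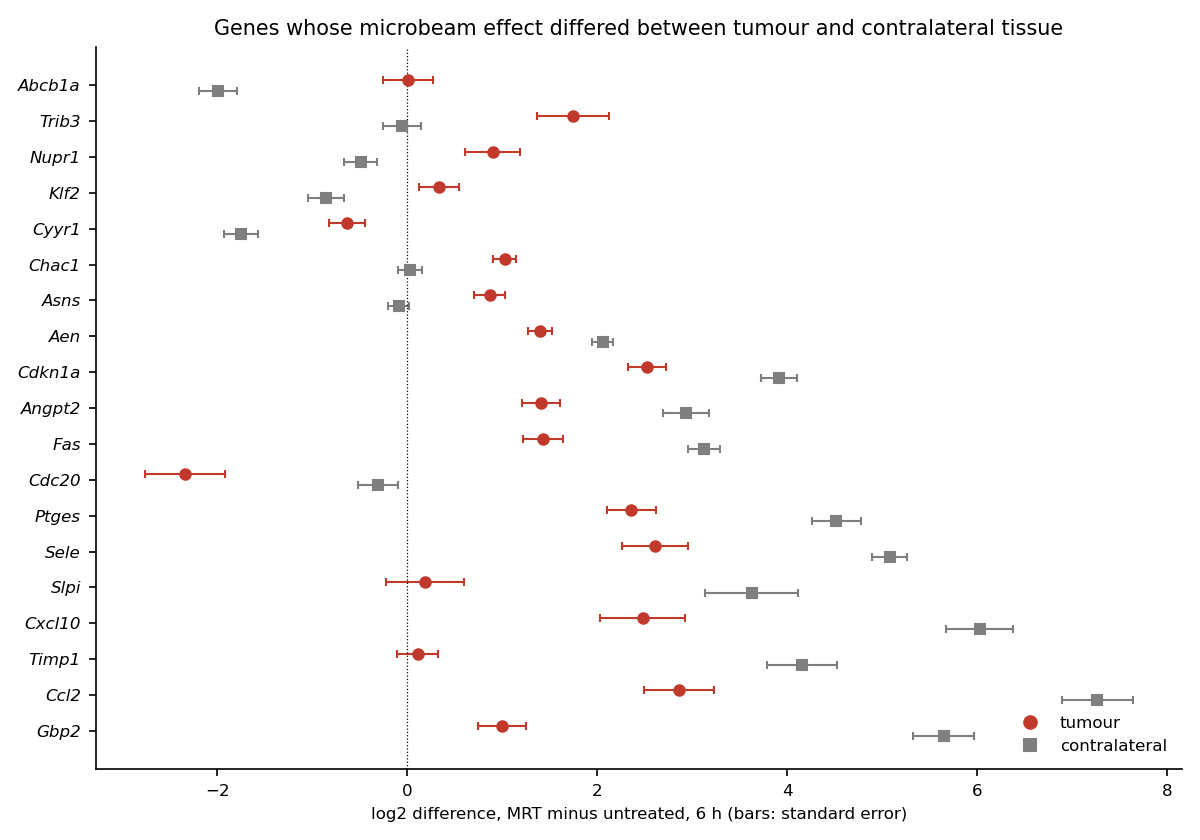
Log2 difference, MRT minus untreated at 6 h, in tumour (red circles) and in the contralateral hemisphere (grey squares), for 19 genes in which the effects differed between the tissues; bars are SE. Genes are ordered by the signed effect in tumour minus that in the contralateral hemisphere. The most positive difference is at the top and the most negative at the bottom. Ccl2 lies at 2.86 in tumour and 7.27 in the contralateral hemisphere, and Chac1 at 1.03 and 0.03.

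Among the genes with the largest lower effect in tumour, Gbp2, Ccl2 and Timp1 had higher untreated levels in tumour than in the contralateral hemisphere. The untreated levels of both tissues enter the tested difference, so these levels are no independent result. Gbp2, an interferon-induced GTPase, was 1.00 higher with MRT in tumour and 5.65 higher in the contralateral hemisphere, a difference of -4.65 ± 0.41 (adjusted p = 8.8e-15). Its level was 11.57 ± 0.56 in MRT and 10.57 ± 0.23 in untreated tumours, and 11.45 ± 0.52 in MRT and 5.80 ± 0.40 in untreated contralateral samples (SD, n = 9 and 5). The MRT levels of both tissues were close, and the untreated levels lay apart. Ccl2 followed that pattern, at 12.08 ± 0.76 in MRT and 9.23 ± 0.82 in untreated tumours and 11.87 ± 0.63 in MRT and 4.61 ± 0.22 in untreated contralateral samples (-4.41 ± 0.53, adjusted p = 5e-09). Timp1, an inhibitor of metalloproteases, was at 12.54 ± 0.52 in MRT and 12.43 ± 0.27 in untreated tumours and at 10.73 ± 0.86 in MRT and 6.58 ± 0.43 in untreated contralateral samples (-4.05 ± 0.44, adjusted p = 8.2e-11). The differences were -3.55 ± 0.58 for Cxcl10 (adjusted p = 2.7e-05) and -3.43 ± 0.66 for Slpi, a leukocyte protease inhibitor (adjusted p = 0.00068).

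Several p53 and vessel genes of the tumour comparison also rose less there than in the contralateral hemisphere. Cdkn1a reached 11.37 ± 0.42 in MRT tumours and 11.33 ± 0.38 in MRT contralateral samples, and started from 8.84 ± 0.39 in untreated tumours and 7.41 ± 0.45 in untreated contralateral samples (difference of effects -1.39 ± 0.28, adjusted p = 0.0017). Fas differed by -1.70 ± 0.27 (adjusted p = 1.7e-05), Ptges by -2.17 ± 0.37 (adjusted p = 6.5e-05), Sele by -2.47 ± 0.40 (adjusted p = 2.4e-05) and Angpt2 by -1.53 ± 0.32 (adjusted p = 0.0031). Sele is the member whose MRT level itself was lower in tumour, at 6.60 ± 0.89 against 8.58 ± 0.61 in contralateral samples. For Aen (-0.66 ± 0.17, adjusted p = 0.034) the call was lost in 10 of 19 fits without 1 array, up to 0.13. On 1 probe set per gene 4.99% of genes were called higher and 2.4% lower in the contralateral hemisphere, and 0.675% had a lower and 0.0844% a higher effect in tumour. Over the death list 10 of 12 genes were called higher in the contralateral hemisphere, and the effect in tumour was lower in 4 and higher in 0. Over the interferon list 30 of 32 were called higher there, and the effect in tumour was lower in 10 and higher in 0.

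In the opposite direction, Abcb1a, the P-glycoprotein drug pump of brain capillaries, did not pass the test in tumour (0.01 ± 0.26) and fell by 1.99 ± 0.20 on the log2 scale in the contralateral hemisphere (difference 1.99 ± 0.33, adjusted p = 4.4e-05). Its level was 8.67 ± 0.58 in MRT and 8.66 ± 0.37 in untreated tumours. Trib3 was higher in tumour by 1.75 and differed by -0.05 ± 0.20 in the contralateral hemisphere (difference 1.81 ± 0.44, adjusted p = 0.024), while its other probe sets gave differences of 0.94 and 1.48 without a call (adjusted p = 0.87 and 0.14). Chac1 and Asns, the other Atf4 targets called in tumour and looked up after their values were seen, followed it. Over the 13 genes of protein and amino acid stress the effect in tumour was called higher in 3 and lower in 1. The median difference was 0.01. Of all genes 0.0844% were called higher and 0.675% lower. Chac1 differed by 1.03 in tumour and 0.03 in the contralateral hemisphere (difference 0.99 ± 0.18, adjusted p = 0.00024), and Asns by 0.87 and -0.09 (difference 0.96 ± 0.19, adjusted p = 0.0017). Untreated tumours held less of both than untreated contralateral samples, with 8.71 ± 0.10 for Chac1 and 8.93 ± 0.28 for Asns in tumours, against 9.50 ± 0.22 and 9.86 ± 0.06 in contralateral samples. The signed difference was also positive for the stress protein Nupr1 (1.39 ± 0.34, adjusted p = 0.03), the endothelial transcription factor Klf2 (1.19 ± 0.29, adjusted p = 0.024) and Cyyr1 (1.12 ± 0.27, adjusted p = 0.023). Their effects in tumour and contralateral hemisphere were 0.90 and -0.49 for Nupr1, 0.34 and -0.85 for Klf2 and -0.63 and -1.75 for Cyyr1. Trib3, Nupr1, Klf2 and Cyyr1 lost the call in 6, 9, 5 and 4 of 19 fits without 1 array, up to 0.072, 0.12, 0.11 and 0.062. The fall of Cdc20 in tumour (-2.34) against -0.31 in the contralateral hemisphere, where it was at 5.61 ± 0.34 in MRT and 5.91 ± 0.24 in untreated samples, gave a difference of -2.03 ± 0.48 (adjusted p = 0.016, and 0.052 without untreated tumour 1).

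At 48 h MRT called 386 probe sets in tumour against untreated tumours of that time (1.24%, of which 295 or 0.95% higher), and at 8 d 11687 (37.6%). No sample is shared with the 6 h comparison. Of the 239 called at 6 h, 47 were called the same way and 1 the opposite way among the 386 at 48 h, and 145 the same way and 9 the opposite way among the 11687 at 8 d. The probe sets called higher at 6 h had median differences of 1.04 (6 h), 0.61 (48 h) and 0.76 (8 d), and those called lower had -0.93, -0.08 and -0.55. Both sets were chosen at 6 h, so their medians at 6 h are no independent measure.

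**Figure D5:**
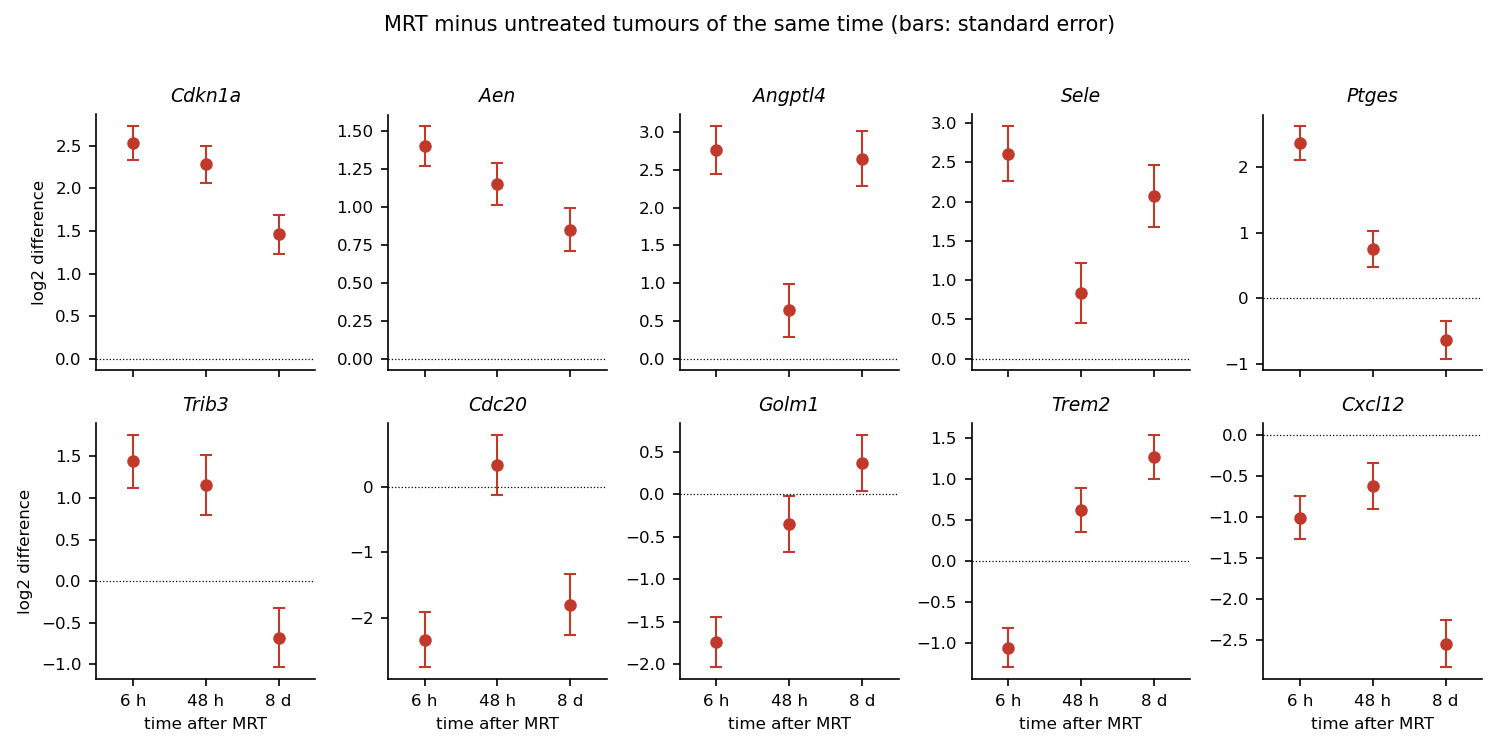
Log2 difference, MRT minus untreated tumours of the same time, for 10 genes at 6 h, 48 h and 8 d, with SE bars. Cdkn1a and Aen stay above 0 at all times, Ptges and Trib3 cross 0 by 8 d, Cdc20 is at -2.34, 0.33 and -1.80, and Trem2 runs from -1.06 at 6 h to 1.27 at 8 d.

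Persistence differed between genes. Cdkn1a was called at every time, at 2.53, 2.28 and 1.46, as were Aen (1.40, 1.15 and 0.85), Fas (1.43, 0.96 and 1.30), Gdf15 (2.19, 2.02 and 1.64) and Ccl2 (2.86, 2.04 and 2.66). The 8 d effect was lower than the 6 h effect for Cdkn1a (-1.07 ± 0.30, adjusted p = 0.01), Ptges (-2.99 ± 0.38, adjusted p = 2.1e-06), Angpt2 (-1.16 ± 0.30, adjusted p = 0.0053) and Trib3 (-2.11 ± 0.49, adjusted p = 0.0018, on the dimmer probe set without overlap at 6 h). The brightest Trib3 probe set gave -2.22 ± 0.58 (adjusted p = 0.0052) and the third -2.66 ± 0.59 (adjusted p = 0.0014). Aen was lower by 0.55 at adjusted p = 0.032 and lost that call in 4 of 18 fits without 1 array, up to 0.086. These genes, like the leading 6 h falls compared below, were picked for their 6 h differences. The same 6 h values enter the tests between times, which therefore lean towards a smaller effect later. Mdm2 was called at 48 h (0.74, adjusted p = 0.001) and not at 8 d (0.06, adjusted p = 0.76). Angptl4 differed by 2.76 at 6 h, 0.64 at 48 h (adjusted p = 0.42) and 2.65 at 8 d (adjusted p = 1e-07), and Sele by 2.61, 0.84 (adjusted p = 0.30) and 2.07 (adjusted p = 3.5e-05). With all tumour arrays in the fit, 0 probe sets had a called lower effect at 48 h than at 6 h. The smaller 48 h values of Mdm2, Angptl4 and Sele are therefore no called drop. For Mdm2 the test between 8 d and 6 h is not given here.

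The difference between the 48 h and 6 h effects was called in 16 probe sets (0.0515%), all higher at 48 h, and the count ranged from 4 without untreated 48 h rat 16 to 51 without MRT 6 h rat 7. It was 10 without untreated 6 h rat 1 or 3 or untreated 48 h rat 17, and 39 without MRT 6 h rat 8. Calls with a lower effect at 48 h appeared in other fits, with 40 higher and 11 lower without MRT rat 7, 16 higher and 7 lower without untreated 6 h rat 5, 24 and 11 without both and MRT rat 6, 53 and 10 with the neuron marker mean as a covariate, and 548 and 529 with array quality weights. Of the 15 macrophage and monocyte markers 2 had a higher effect at 48 h and 0 a lower one (median 1.30, against 0.02 over all genes, of which 0.0914% were called). Slamf9, a receptor of macrophages and dendritic cells, differed by -0.48 at 6 h and 2.33 at 48 h (difference 2.81 ± 0.49, adjusted p = 0.0037), and Rgs18, a regulator of G proteins in blood cells, by -0.45 and 2.19 (2.64 ± 0.38, adjusted p = 0.00013). The mannose receptor Mrc1 (2.66 ± 0.50, adjusted p = 0.012), the phospholipase-like Plbd1 (2.56 ± 0.49, adjusted p = 0.013) and the folate receptor Folr2 (2.54 ± 0.47, adjusted p = 0.011) followed. Mrc1 and Folr2 each reached 0.052 without untreated 48 h rat 16, and Plbd1 lost its call without rat 16 or 17, up to 0.06. The 6 h falls of Pik3r6 and Trem2 also differed from 48 h, by 1.27 ± 0.21 (adjusted p = 0.0021) and 1.68 ± 0.36 (adjusted p = 0.046, lost in 13 of 18 fits without 1 array, up to 0.14). All 31 mitosis genes had a higher effect at 48 h than at 6 h (median 0.93), and 0 of these differences were called with limma, where 2920 probe sets had an unadjusted p under 0.05. Their median was -0.89 at 6 h, -0.02 at 48 h with 0 called and -1.63 at 8 d with 30 of 31 called lower, where 25.0% of all genes were called lower.

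Against the 6 h effect the 8 d effect differed in 6082 probe sets (19.6%), 3803 without untreated 8 d rat 27. With every array set to the same median 2184 were higher and 4569 lower, against 2561 and 3521 before, and the median over all probe sets was -0.167, against -0.063 before. With the neuron marker mean as a covariate 1559 were higher and 1470 lower. The largest differences were in genes that at 6 h did not pass the test. They were the striatal neuron genes Tac1 (4.35 ± 1.38, adjusted p = 0.021), Drd1 (4.13 ± 1.29, adjusted p = 0.019) and Scn4b (3.92 ± 0.91, adjusted p = 0.002), with Slc35d3 (4.11 ± 1.33, adjusted p = 0.024) and the actin-severing protein Scin (3.92 ± 0.73, adjusted p = 0.00021). In the other direction they were the water channel Aqp1 (-4.50 ± 0.90, adjusted p = 0.0004), Ccm2l (-4.40 ± 0.87, adjusted p = 0.00036), the methyltransferase Inmt (-4.37 ± 0.85, adjusted p = 0.0003), the Wnt inhibitor Wif1 (-4.27 ± 0.94, adjusted p = 0.0012) and the calmodulin-like Calml3 (-4.17 ± 0.50, adjusted p = 1.4e-06). Slc35d3 lost its call without untreated 6 h rat 3 or untreated 8 d rat 27, up to 0.054, and with the neuron marker mean as a covariate (0.17). Tac1 had adjusted p = 0.052 without untreated 8 d rat 27, and Tac1 and Drd1 had 0.20 and 0.14 with the neuron marker mean as a covariate. The neuron marker medians of the MRT effect were -0.06 at 6 h, -0.48 at 48 h and 1.43 at 8 d. Among the leading 6 h falls, Golm1 differed between 8 d and 6 h by 2.11 ± 0.45 (adjusted p = 0.00076), Trem2 by 2.33 ± 0.37 (adjusted p = 2.7e-05) and Cxcl12, lower still at 8 d (-2.55), by -1.54 ± 0.39 (adjusted p = 0.0041).

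MRT and BB tumours at 6 h were compared on 9 and 6 arrays, and 3287 probe sets were called (10.6%), 1196 higher (3.85%) and 2091 lower (6.74%) in MRT. With every array set to the same median 868 were called higher and 2937 lower, and the median over all probe sets was -0.107, against -0.045 before. The BB arrays carry their own set of labels, so beam type and label set cannot be told apart. With only these 15 arrays in the fit 0 probe sets were called with limma, although 6317 had an unadjusted p under 0.05, and without MRT rat 14 the count was 2165. With all tumour arrays in the fit the NF-kB genes were called higher in MRT in 6 of 15 cases and lower in 0, the p53 arrest and feedback targets higher in 3 of 16 and lower in 0, and the p53 death targets higher in 0 and lower in 1 of 12, beside 4.73% of all genes higher and 8.82% lower. Tissue markers also differed in direction: 18 of 18 neuron markers had positive differences (median 0.75, 1 called higher), as had 8 of 9 oligodendrocyte (median 0.42) and 8 of 8 astrocyte markers (median 0.25), and 0 of 28 replication genes did (median -0.39, 5 called lower). With the neuron marker mean as a covariate 1586 probe sets were called higher and 1708 lower, and the part of tissue content in these calls was not tested further. Tnfaip3 averaged 9.45 ± 0.41 in MRT and 8.27 ± 0.19 in BB tumours (1.18 ± 0.22, adjusted p = 0.00057). Gadd45b averaged 9.76 ± 0.42 in MRT and 8.72 ± 0.26 in BB tumours (1.04 ± 0.17, adjusted p = 0.00014). Sele averaged 6.60 ± 0.89 in MRT and 5.13 ± 0.90 in BB tumours (1.47 ± 0.33, adjusted p = 0.0031). Cxcl2, at 8.38 ± 1.55 in MRT and 5.30 ± 0.28 in BB tumours (3.08 ± 0.58, adjusted p = 0.00048), and Ccl3, at 9.44 ± 1.10 and 7.62 ± 0.59 (1.82 ± 0.33, adjusted p = 0.00034), were also higher in MRT. The other large positive differences were Snhg11, a long non-coding RNA (1.70 ± 0.50, adjusted p = 0.024), and Pacsin1, a neuronal protein of endocytosis (1.54 ± 0.44, adjusted p = 0.02). Snhg11 lost its call without MRT rat 6 (0.051) and with the neuron marker mean as a covariate. Against untreated tumours MRT tumours differed by 0.30 for Snhg11 and -0.35 for Pacsin1. Cdkn1a did not pass the test, at 11.37 ± 0.42 in MRT and 10.88 ± 0.68 in BB tumours (0.49 ± 0.19, adjusted p = 0.081). The largest negative differences were Cox7b2, a cytochrome oxidase subunit (-2.05 ± 0.49, adjusted p = 0.0049), Itgb3bp, a kinetochore protein (-1.59 ± 0.24, adjusted p = 6.3e-05), the ribosome biogenesis factor Rbis (-1.54 ± 0.26, adjusted p = 0.00014), the myeloid lectin Clec4a (-1.53 ± 0.36, adjusted p = 0.0046) and the matrix protein Omd (-1.50 ± 0.32, adjusted p = 0.0018). Against untreated tumours MRT tumours differed by -0.40, -0.35, -0.31, -0.68 and -1.32 for these genes in that order. Itgb3bp and Rbis did not pass the test against untreated tumours (adjusted p = 0.94 and 0.99). Every gene named here as called had adjusted p = 0.12 with only the 15 arrays in the fit, or 0.13 for Clec4a.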

How the data were processed

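RNA of bulk rat tissue was measured on Affymetrix 3' expression arrays. Per the labels' protocols, 200 ng of total RNA isolated with mirVana was amplified with the 3' IVT Express kit. The deposited values are linear intensities, which the authors made per the submitters' processing notes in Affymetrix Expression Console with RMA and MAS5 (BB arrays list RMA only), with no versions given in the sources used here. They were rounded to whole numbers between 7 and 27837, a step of 0.19 log2 at the lowest value. The depth of an array has no read count, and precision is limited by the number of arrays. Log2 was taken here.

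Of 31099 probe sets 57 controls were left out. The platform annotation gave 1 gene symbol to 20826 probe sets (14217 genes, 4525 with more than 1 probe set), several to 436 and none to 9780. Where a list needed 1 value per gene, the probe set brightest on average was used. No 2 arrays held identical values, and each array of a group is a separate rat. Group means were fitted with limma 3.58.1 in R 4.3.3 to all 59 tumour arrays, all 56 contralateral arrays or, for the difference between tissues, all 115, with an intensity trend in eBayes. Tests were two-sided, and calls used a Benjamini-Hochberg adjusted p under 0.05 over all 31042 probe sets. The fit was tested on simulated data.

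The comparisons, the 16 pathway and 14 marker lists (471 genes, 416 measured) and the tests were chosen with earlier results of these data known. Names were drawn from the 12 largest rises and 12 largest falls among called probe sets without overlap between groups (10 such falls exist), of each list up to 8 called and 4 uncalled members (markers up to 4 each), and in other comparisons these genes with the 5 largest differences in each direction. Not every gene so picked is named, and other genes are named as examples. The tissues of a rat pair the samples: deviations from group means correlated above 0.1 in 13 of 14 rats (median 0.37, against -0.083 with other rats). Promoters (250 bases searched, both strands) are from RefSeq, GRCr8. Alternatives were another normalization, filter, variance prior, weights, covariates, groups fitted, block and arrays left out. Figures and tables used Python 3.11.15, numpy 2.4.6, pandas 2.3.3 and matplotlib 3.10.9.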

Additional observations from a re-analysis of the deposited data

Results flagged for a closer look

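Of 258 groups of 5 or 9 tumours tested for a sample far from the others, 35 held one, 24 of them with untreated rat 5. The criterion was a gap to the nearest sample above 0.493 (9 samples) or 0.71 (5 samples) of the group's range, which chance exceeds in about 1 of 20 groups.

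Untreated rat 5 stood high, in log2 intensity, for the myeloid genes Trem2 (8.97) and Csf1r (10.38), for Tspan8 (8.99), and for the chemokines and cytokines Ccl3 (8.76), Il1b (9.50), Cxcl2 (8.91), Ccl20 (7.31), Ccl4 (9.10), Cxcl10 (9.81) and Cxcl11 (9.24). It was also high for Birc3 (7.66), Nfkbiz (7.22), Ifit3 (9.77), Atf3 (8.24), Steap4 (6.39) and S100a8 (6.52), and low for Angpt2 (6.69) and the mitotic gene Pttg1 (10.16). Its list means stood apart for cytokines (7.48), prostaglandin genes (8.05), the interferon response (9.09), and markers of macrophages (9.58), neutrophils (5.79) and T and NK cells (6.09). Among the other untreated tumours, rat 4 was low for Cxcl12 (10.38) and rat 1 high for Fzr1 (9.14) and Atf4 (12.44).

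Among MRT tumours, rat 10 was low for Angpt2 (7.90), Ccng1 (10.97) and Ifit3 (6.23) and high for Ccl4 (10.73). Rat 7 was low for Ccl2 (10.31) and the cytokine mean (6.73), and rat 6 for Phlda3 (9.58) and the mean of the tumour genes (10.11).

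The MRT effect differed between tumour and contralateral hemisphere in a direct test with limma, and is taken here with its sign. It was lower in tumour, in log2, for Gbp2 (-4.65), Ccl2 (-4.41), Timp1 (-4.05), Cxcl10 (-3.55), Slpi (-3.43), Sele (-2.47), Ptges (-2.17), Cdc20 (-2.03), Fas (-1.70), Angpt2 (-1.53), Cdkn1a (-1.39) and Aen (-0.66). For Cdc20 this was a larger fall in tumour. The effect was higher in tumour for Abcb1a (1.99), Trib3 (1.81), Nupr1 (1.39), Klf2 (1.19), Cyyr1 (1.12), Chac1 (0.99) and Asns (0.96).

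Tested the same way and again taken with its sign, the 48 h effect exceeded the 6 h effect for Slamf9 (2.81), Mrc1 (2.66), Rgs18 (2.64), Plbd1 (2.56), Folr2 (2.54), Trem2 (1.68) and Pik3r6 (1.27). The 8 d effect exceeded it for Tac1 (4.35), Drd1 (4.13), Slc35d3 (4.11), Scn4b (3.92), Scin (3.92), Trem2 (2.33) and Golm1 (2.11), and was lower than it for Aqp1 (-4.50), Ccm2l (-4.40), Inmt (-4.37), Wif1 (-4.27), Calml3 (-4.17), Ptges (-2.99), Trib3 (-2.11), Cxcl12 (-1.54), Angpt2 (-1.16), Cdkn1a (-1.07) and Aen (-0.55).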

How the results depend on the processing

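Among the genes followed through the alternatives in each comparison, none changed direction in that comparison. List medians near 0 did, among them neuron markers (-0.06, and 0.02 with weights or 0.08 without untreated tumour 5 and MRT tumours 6 and 7), oligodendrocyte markers (0.01, and -0.15 and -0.06) and astrocyte markers (0.01, and -0.04 with weights). For MRT against untreated tumours, 99 genes under 2560 alternative values kept their side of the threshold in 2271, lost the call in 205 and gained it in 84. The 239 called probe sets became 3498 with array quality weights, 462 with the neuron mean as a covariate, 104 with only the 2 groups and 394 without untreated tumour 5 and MRT tumours 6 and 7. Other settings gave 202 to 286, and leaving out 1 array 151 to 367. The 70 calls over the lists became 169 with weights, 41 with only the 2 groups and 101 without the 3 arrays (53 to 84 with 1 left out). With only the 2 groups, cytokine calls were 4, NF-kB 3, interferon 3, mitosis 2, reactive astrocyte 2, adhesion, stress, Nrf2 and microglia 1 each, and macrophage and endothelial 0. Without the 3 arrays, stress had 4 calls, Nrf2, hypoxia and adhesion 3 each, glucocorticoid and reactive astrocyte 5 each, and microglia and endothelial 3 lower each. For tumour against contralateral effects, 139 became 929 with weights and 90 with only the 4 groups (103 to 152 with 1 array left out). The rat is a pairing of the tissues, and with it as a block 195 were called, 23 higher and 172 lower. Comparisons among tumours could not be paired, since no rat is in 2 tumour groups. The check of untreated tumours against the same rats' contralateral samples, run with the rat as a block after seeing the data, again called 12 of 12 tumour genes higher. For 48 h minus 6 h, 16 became 10 after a median shift, 34 with 1 probe set per gene, 1077 with weights, 63 with the neuron covariate, 28 without BB arrays and 35 without the 3 arrays (4 to 51 with 1 left out). For 8 d minus 6 h, 6082 became 3911 with 1 probe set per gene, 10732 with weights and 3029 with the neuron covariate (3803 to 6918 with 1 left out). For MRT against BB, 3287 became 6746 with weights and 0 with only the 2 groups (2165 to 3640 with 1 left out). Fewer probe sets are tested with 1 per gene and fewer arrays estimate the spread with fewer groups. The estimate of the array weights stopped before it converged, so the counts with weights are values of an unfinished fit. The cause of the other changes was not tested. With 5 untreated rats and a median SE of 0.152 log2, small changes could not be called, and values near the lowest intensity move in rounding steps.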
